A study of Mus musculus with 3 samples.

Results

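Immature granule-rich neutrophils were 142 of the 44212 cell barcodes in 3 droplet-based single-cell RNA libraries of peripheral blood mononuclear cells (PBMCs) of the mouse. A barcode was counted among them when it had at least 20 unique molecular identifiers (UMIs, each standing for 1 captured transcript) of S100a8 and S100a9 together and at least 10 of Ngp, Camp and Ltf together, with at most 1 UMI of Cd79a and Cd79b and at most 1 of Cd3d, Cd3e and Cd3g, the receptor genes of B and T cells. It also needed at least 200 genes, at most 7.5% mitochondrial UMIs and less than 20% haemoglobin UMIs, limits that 28333 barcodes passed. The members were therefore chosen by their own measured levels of Ngp, Camp, Ltf, S100a8 and S100a9, and the levels of those genes below describe the choice. Lcn2 was the one marker of these cells that the rule did not use.

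The study asked how glycyrrhizic acid (GA), a saponin of licorice root, acts on the immune system of aged mice. Female C57BL/6 mice formed 3 groups: young mice at 8 weeks of age, aged mice at 16 months, and aged-GA mice, also at 16 months, that had received GA by tail vein injection for 1 month, where control mice received the vehicle. The study's design gives several mice per group, while each group was 1 library here and no label ties cells to a mouse, so mouse, library and group cannot be told apart and no test was made. The libraries held 58894294, 82260961 and 98155671 UMIs in young, aged and aged-GA mice. Intervals are 95% and cover counting error only. Mononuclear preparations often remove most mature granulocytes by density. The study's methods name no such step, so how far the neutrophils here represent those of blood was not tested.

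Neutrophils form in the bone marrow and load their granules in waves. Azurophil granule proteins such as Mpo and Elane are made first, by promyelocytes that still divide. Specific granule proteins such as Ltf, Camp, Ngp and Lcn2 follow in myelocytes and metamyelocytes, under the transcription factor Cebpe, and gelatinase granule proteins such as Mmp9 come last. Mature neutrophils stop making granule proteins and turn to receptors and cytokines such as Cxcr2 and Il1b. Cells rich in specific granule transcripts are common in marrow and rare in resting blood.

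The granule genes of the rule and Lcn2 are shown by their promoters, because these transcripts define the cells. The windows run from 250 bases before to 50 after the start site in RefSeq (GRCm38.p6). Ngp is at chr9:110419808-110423012, Camp at chr9:109847377-109849456 and Ltf at chr9:111019292-111042766, so the 3 genes lie within 1.195 Mb of chromosome 9; Lcn2 is at chr2:32384637-32387739. The windows are chr9:110419558-110419857 (plus strand) for Ngp, chr9:109849407-109849706 (minus) for Camp, chr9:111019042-111019341 (plus) for Ltf and chr2:32387690-32387989 (minus) for Lcn2. Capitals mark matches to TTNNGNAA on either strand, a loose form of the C/EBP site.
Ngp: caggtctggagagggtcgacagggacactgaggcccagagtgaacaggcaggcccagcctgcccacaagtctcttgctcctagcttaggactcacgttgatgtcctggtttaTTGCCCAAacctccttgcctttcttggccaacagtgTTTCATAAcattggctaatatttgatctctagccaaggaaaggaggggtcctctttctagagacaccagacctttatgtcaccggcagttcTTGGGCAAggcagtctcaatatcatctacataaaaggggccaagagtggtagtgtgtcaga
Camp: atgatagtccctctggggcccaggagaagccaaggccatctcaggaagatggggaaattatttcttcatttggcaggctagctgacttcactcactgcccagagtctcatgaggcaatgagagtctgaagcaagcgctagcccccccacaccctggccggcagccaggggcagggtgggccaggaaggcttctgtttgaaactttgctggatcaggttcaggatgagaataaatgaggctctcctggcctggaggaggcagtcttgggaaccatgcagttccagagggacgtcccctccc
Ltf: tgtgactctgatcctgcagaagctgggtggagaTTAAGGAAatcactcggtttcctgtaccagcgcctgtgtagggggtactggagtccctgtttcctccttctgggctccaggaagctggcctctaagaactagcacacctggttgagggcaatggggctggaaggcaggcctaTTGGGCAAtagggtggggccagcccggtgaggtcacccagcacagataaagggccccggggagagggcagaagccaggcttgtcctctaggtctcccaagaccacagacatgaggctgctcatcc
Lcn2: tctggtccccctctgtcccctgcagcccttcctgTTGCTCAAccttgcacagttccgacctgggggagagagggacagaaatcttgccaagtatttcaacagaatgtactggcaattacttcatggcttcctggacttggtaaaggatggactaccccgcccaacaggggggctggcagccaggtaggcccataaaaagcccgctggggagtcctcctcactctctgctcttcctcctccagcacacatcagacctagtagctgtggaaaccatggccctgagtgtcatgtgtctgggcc

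Ngp held 3 such matches, starting at -138, -102 and -11 from the start site. Ltf held 2, at -217 and -75, and Lcn2 held 1, at -216. Camp held none in this window. Of 32841 mouse promoters of the same length, 40.7% held at least 1 match and 15.1% held 2 or more, so 1 match was common. GAGGAA, an ETS-type core searched on both strands, was found once in Ltf (-157) and once in Lcn2 (-20), against 28.3% of all promoters, and TATAAA was in none of the 4 windows, against 13.6%. None of these matches overlapped another. A match is a run of letters and not a bound site.

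Granule-rich neutrophils numbered 5 in young mice, 85 in aged mice and 52 in aged-GA mice. They were 0.0599% of 8354 kept cells in young mice (exact binomial interval 0.0194% to 0.140%), 0.930% of 9136 in aged mice (0.744% to 1.15%) and 0.480% of 10843 in aged-GA mice (0.358% to 0.628%). The intervals of the 3 libraries did not overlap. Mature neutrophils, defined by the same S100 limit with at most 1 UMI of Ngp, Camp and Ltf, numbered 9, 745 and 461. Granule-rich cells were 10.2% of neutrophils in aged mice (8.26% to 12.5%) and 10.1% in aged-GA mice (7.66% to 13.1%), shares whose intervals overlapped almost wholly. In young mice the share was 35.7%, of only 14 neutrophils, with an interval from 12.8% to 64.9%. The share of kept cells was lower in aged-GA than in aged mice by a log2 ratio of -0.96 for granule-rich cells (-1.48 to -0.44) and of -0.94 for mature neutrophils (-1.11 to -0.77), so both kinds of neutrophil differed by a like amount between the libraries. A share also depends on how many other cells a library caught, and mice were not replicated.

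Few barcodes lay near the limit on granule genes. Between the 2 kinds of neutrophil, with 2 to 9 UMIs of Ngp, Camp and Ltf, there were 0, 24 and 5 barcodes. Just inside the limit, at 10 to 19 UMIs, were 5 cells of aged and 2 of aged-GA mice, and just outside, at 5 to 9, were 11 and 3. In aged mice the cells just inside had 6985 CPM of Lcn2 (UMIs of a gene in the summed cells, scaled to a common total) and 187 CPM of the cytokine Il1b; those just outside had 3154 and 3267 CPM. In aged-GA mice the 2 cells just inside had 1652 CPM of Lcn2 and 2643 of Il1b and the 3 just outside 9238 and 915, the opposite order. Of those 2 cells, 1 had 40 UMIs of Il1b and also 4 of the monocyte genes Csf1r, Ccr2 and F13a1. The order of Il1b in aged-GA mice therefore rested on 1 barcode. The limit on B and T cell UMIs removed 3, 10 and 20 barcodes that met the others. The removed barcodes of aged and aged-GA mice had medians of 11068 and 12103 UMIs, above those of members. Without that limit the log2 ratio of shares was -0.65. No barcode was shared by members of different libraries, although 62 barcodes occurred in both aged and aged-GA mice and 1 of these was a member in aged mice.

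**Figure D1:**
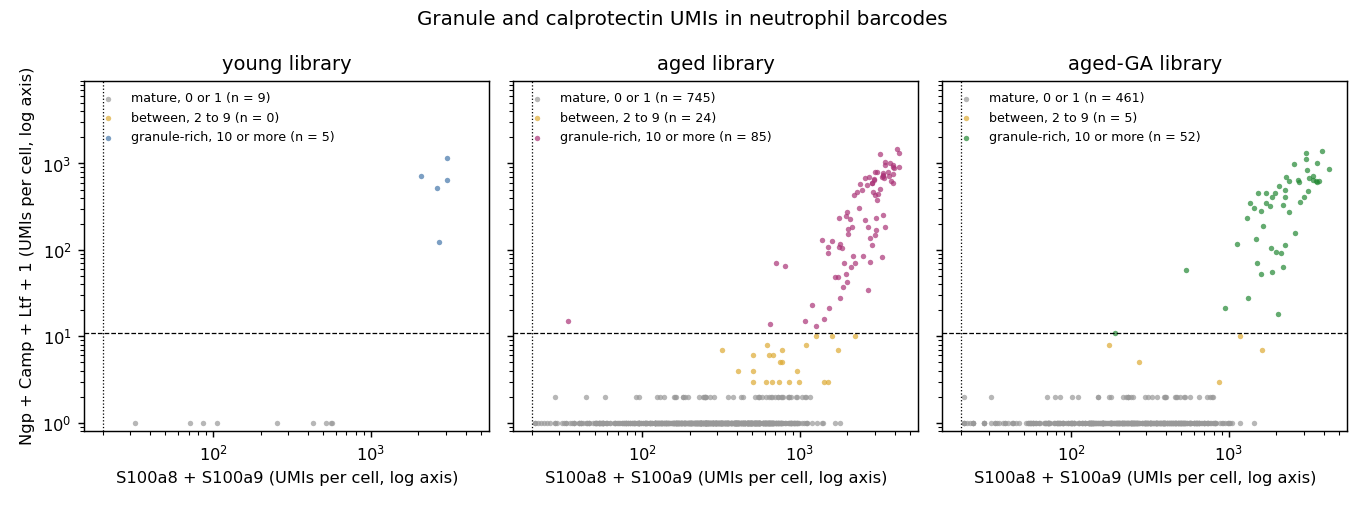
UMIs of S100a8 and S100a9 (x, log scale) against UMIs of Ngp, Camp and Ltf plus 1 (y, log scale) in each neutrophil of young, aged and aged-GA mice, with 1 point per cell. Granule-rich cells (5, 85 and 52) lie above the dashed limit of 10 UMIs, mature neutrophils (9, 745 and 461) at the bottom, and 0, 24 and 5 cells lie between.

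Lcn2, the marker that the rule did not use, was present in every member, while the levels of Ngp, Camp and Ltf follow from the choice. Ngp, a cystatin-like granule protein, had 95, 290, 338, 397 and 569 UMIs in the 5 young cells. In aged mice Ngp ranged from 6 to 615 UMIs a cell with a median of 143, and in aged-GA mice from 10 to 631 with a median of 186. Camp, the cathelicidin precursor, had medians of 189, 79 and 119 UMIs, and Ltf, the iron-binding lactoferrin, of 51, 32 and 67. These spreads within a library were far wider than the differences between library medians. Lcn2, which binds bacterial siderophores, had at least 71 UMIs in each young cell, at least 18 in each aged cell and at least 1 in each aged-GA cell, with medians of 84, 103 and 76. Its presence was not particular to members. Of mature neutrophils, defined as above, 66.7%, 66.6% and 65.5% had Lcn2, with medians of 3, 2 and 1 UMIs. Their median depths were 2575, 2234 and 2444 UMIs. Members held 70.0%, 85.7% and 63.2% of all Ngp UMIs of kept cells in young, aged and aged-GA mice, though they were at most 0.930% of the cells. In B cells, which should lack Ngp, at least 1 UMI was found in 0.176%, 2.18% and 2.23% of cells at median depths of 3395, 3096 and 3770 UMIs, against all members at medians of 7444, 6913 and 6956.

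Mpo (myeloperoxidase), Elane (neutrophil elastase), Ctsg (cathepsin G) and Ms4a3, a gene of granulocyte progenitors, had 0 UMIs in members of all 3 libraries, of 39501, 616224 and 394773 UMIs. Prtn3 (proteinase 3) had 0, 4 and 1 UMIs and the serine protease Prss57 had 0, 2 and 0. The whole list of 10 azurophil genes nonetheless summed to 759, 750 and 813 CPM in members of young, aged and aged-GA mice against 120, 370 and 297 in mature neutrophils. Most of it was Serpinb1a, at 380, 428 and 456 CPM, and the granule membrane protein Cd63, at 380, 287 and 263. These were the 2 genes at least 2-fold higher in members, of 5 tested in aged mice and 3 in aged-GA mice. The other 3 and 1 were at least 2-fold lower. The list of 8 markers of haematopoietic progenitors summed to 1, 8 and 7 UMIs. Mki67, a protein of dividing cells, had 2, 3 and 0 UMIs, and Top2a, the topoisomerase of replicating DNA, had 0, 3 and 1. After each cell was thinned to 1000 UMIs, at least 1 UMI of the 20 genes of G2 and M phase was found in 13.1% of members in aged mice (6.72% to 22.2%; 1 shallower cell left out) and in 25% in aged-GA mice (14.03% to 38.9%). The same share was 25.9% and 24.6% in mature neutrophils, so it was lower in members of aged mice and about level in aged-GA mice. At 2000 UMIs the shares in members were 19.05% and 40.4% against 34.9% and 35.9%, and unthinned they were 50.6% and 75% against 45.4% and 47.3%, in cells of unequal depth. Thinning to 2000 UMIs left out 269 of 745 and 124 of 461 mature neutrophils as too shallow, against 1 and 0 members, and thinning to 1000 left out 20 and 6. Cks2, a kinase subunit also found in non-dividing cells, gave 66 of 98 and 52 of 77 of these UMIs. Members with 5 or more of these UMIs numbered 3 in aged and 4 in aged-GA mice.

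Members were large cells by UMI count. They averaged 7900, 7250 and 7592 UMIs in young, aged and aged-GA mice, which was 2.85, 1.98 and 2.10 times the mean of mature neutrophils. S100a8 and S100a9, the calcium-binding pair that forms calprotectin, made up 34.0%, 35.4% and 30.1% of the UMIs of members and, in aged and aged-GA mice, 9.59% and 8.23% of those of mature neutrophils. Because members held more UMIs, partly of S100a8 and S100a9, a gene with equal UMIs a cell had a lower CPM in members. The median log2 ratio of members over mature neutrophils across all genes tested was -0.75 in aged mice and -0.59 in aged-GA mice. Differences below are to be read against it. On UMIs per cell the same medians were 0.22 and 0.47.

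The 20 most abundant genes of members included, after S100a8, S100a9, Ngp and Camp, the resistin-like cytokine Retnlg (15721, 20285 and 14510 CPM in young, aged and aged-GA mice) and the whey acidic protein Wfdc21 (9797, 6834 and 5996 CPM). Lyz2, the lysozyme of myeloid cells, stood at 7012, 8722 and 9983 CPM. Chil3, a chitinase-like lectin of myeloid precursors, stood at 4734, 2252 and 2938 CPM. Anxa1, an annexin of neutrophil granules, differed little between libraries, at 2532, 2622 and 2776 CPM. A level is not scaled by transcript length here, since 1 UMI stands for 1 transcript end whatever its length.

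Compared with mature neutrophils, members had higher levels of specific granule genes and lower levels of inflammatory genes and of genes of stress at dissociation. This contrast is the one the rule was drawn on, so its counts are a description. Of 3670 genes with at least 100 UMIs in aged mice, 108 (2.94%) were at least 2-fold higher in members and 1352 (36.8%) at least 2-fold lower. Of 2606 in aged-GA mice, 98 (3.76%) were higher and 760 (29.2%) lower. Of 2600 genes tested in both, 71 were higher in both libraries, 594 lower in both and 0 past 2-fold in opposite directions. The balance depended on the scale: on UMIs per cell 528 genes were higher and 348 lower in aged mice, and 615 and 187 in aged-GA mice. With a total that leaves out the rule's, haemoglobin and mitochondrial genes, 255 and 576 were higher and lower in aged mice and 217 and 370 in aged-GA mice.

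**Figure D2:**
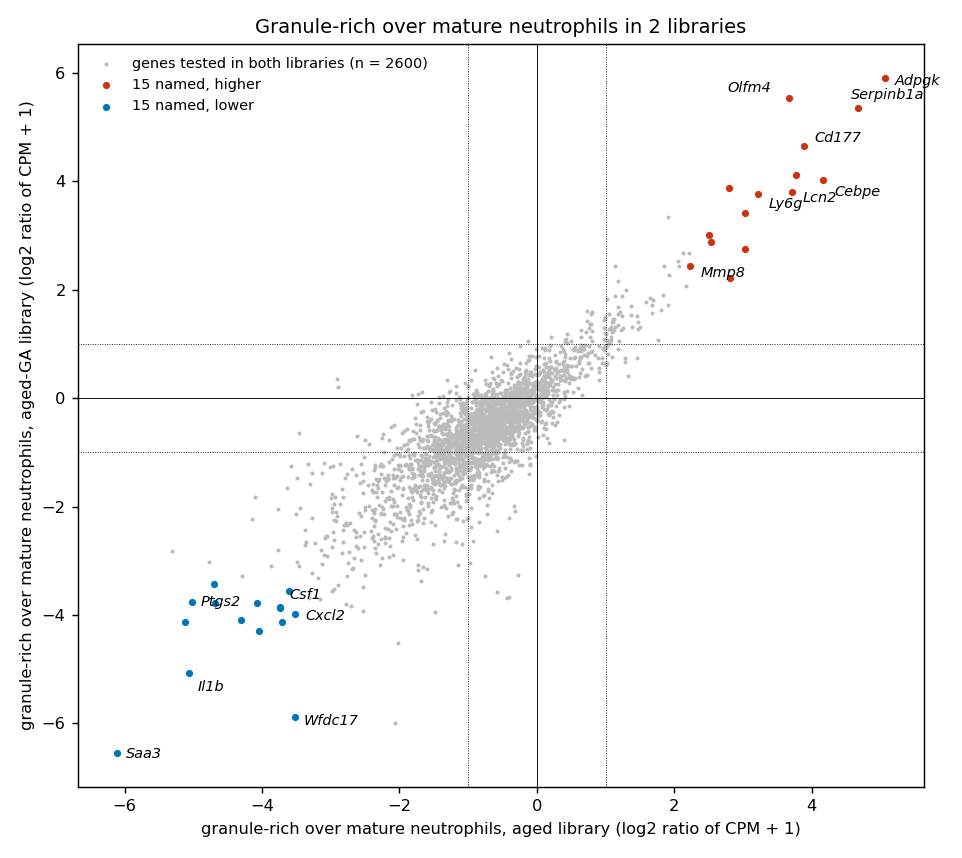
Log2 ratio of CPM in granule-rich over mature neutrophils in aged mice (x) and aged-GA mice (y) for the 2600 genes tested in both, with 1 point per gene. The 15 named genes highest in both libraries are red and the 15 lowest blue; 71 genes lie past 2-fold up in both libraries, 594 past 2-fold down in both and 0 in opposite corners.

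Of 18 specific granule genes, which include Ngp, Camp and Ltf, 14 outside the rule were tested in each library; 9 were at least 2-fold higher in members of aged mice and 10 in those of aged-GA mice, with 0 lower. Their median log2 ratio was 1.29 and 1.49. Lcn2 stood at 14926 CPM in members against 1138 in mature neutrophils of aged mice and at 12625 against 898 in aged-GA mice. Cd177, a neutrophil surface glycoprotein stored in these granules, stood at 878 against 58.4 CPM and at 1039 against 40.2. Chil3 reached 2252 against 601 CPM and 2938 against 287. Pglyrp1, a peptidoglycan-binding protein, was less apart, at 2661 against 973 and 2343 against 821 CPM. Hp (haptoglobin) was within 2-fold, with log2 ratios of -0.10 and -0.17.

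The serpin Serpinb1a, an inhibitor of the granule proteases, and Cebpe, the factor that drives specific granule genes, were among the 15 named genes highest over mature neutrophils. Serpinb1a stood at 428 CPM in members and 15.8 in mature neutrophils of aged mice, and at 456 and 10.2 in aged-GA mice. Cebpe stood at 229 against 11.8 CPM and 220 against 12.6. In young mice 1 of 5 members had Cebpe, with 2 UMIs. After thinning to 1000 UMIs, Cebpe was found in 14.3% and 21.2% of members of aged and aged-GA mice and in 1.24% and 1.76% of mature neutrophils; in unthinned B cells it was found in 0.216% and 0.0930%. The other factors of the list did not share this pattern, since of 14 and 13 tested, Cebpe alone was at least 2-fold higher and 7 and 8 were at least 2-fold lower. Cebpb, the factor of emergency and late granulopoiesis, stood at 1123 against 3875 CPM in aged mice and 1788 against 4930 in aged-GA mice.

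Other named genes higher in members had roles outside the granule. Adpgk, an ADP-dependent glucokinase, had the largest log2 ratio of the named genes outside the rule in both libraries, 5.07 and 5.91. Syne1, which ties the nucleus to the cytoskeleton, had 3.77 and 4.11, and Ly6g, the surface antigen by which mouse neutrophils are sorted, had 3.22 and 3.77. Ifitm6, of the interferon-induced transmembrane family, had 3.04 and 3.42, Ckap4, an endoplasmic reticulum membrane protein, 2.51 and 3.01, and the stress kinase Mapk13 2.81 and 2.22. Ly6g reached 962, 672 and 626 CPM in members of young, aged and aged-GA mice and 80.1, 71.3 and 45.0 in mature neutrophils. The open reading frame AA467197 also stood higher, with 3.03 and 2.76.

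Gelatinase granule genes split. Of 11 tested in aged mice, 5 were at least 2-fold higher in members and 2 lower, and of 10 in aged-GA mice, 4 were higher and 1 lower. Mmp8, the neutrophil collagenase, stood at 2157 against 459 CPM and 2424 against 447, and the membrane-bound protease Mmp25 at 211 against 29.4 and 236 against 15 CPM. Mmp9, gelatinase B, stood at 2309 against 1095 CPM in aged and 2632 against 1052 in aged-GA mice. All 7 genes of the NADPH oxidase, which makes the respiratory burst, were tested; 2 were at least 2-fold higher in members of both libraries, Cybb (the catalytic subunit) at 1259 against 576 and 1282 against 464 CPM and Ncf1 (an activating subunit) at 657 against 312 and 684 against 323, and 0 were lower.

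Genes of the mature neutrophil were lower in CPM, with an exception. Of 24 tested, 17 in aged and 19 in aged-GA mice were at least 2-fold lower in members, with medians of -1.78 and -1.94, and 1, in aged-GA mice, was higher. That one was Retnlg, at 14510 against 6318 CPM; in aged mice it stood at 20285 against 10221. Because of Retnlg the list summed on UMIs per cell turned round in aged mice, at 256 in members and 211 in mature neutrophils, and stood at 221 against 236 in aged-GA mice. Csf3r, the receptor of granulocyte colony-stimulating factor, had 313 against 1450 CPM and 327 against 1724. Cxcr2, the chemokine receptor that draws neutrophils out of marrow, was closer, with log2 ratios of -0.85 and -1.23. Of 22 genes of adhesion, homing and surface receptors tested, 4 were at least 2-fold higher and 9 lower in aged mice, and 5 and 10 in aged-GA mice, with medians of -0.77 and -0.75 near those of all genes. Cd101, a surface protein of fully mature neutrophils, had 5 and 2 UMIs in all members, or 8.11 against 66.5 CPM and 5.07 against 64.8.

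Inflammatory genes were lower in members on both scales. Of 17 tested, 14 in aged and 13 in aged-GA mice were at least 2-fold lower in members and 0 higher, with medians of -1.79 and -2.13. The list summed to 18.0 UMIs a member against 75.1 a mature neutrophil in aged mice and to 26.1 against 113 in aged-GA mice, so the difference also held on UMIs per cell. Il1b, the fever cytokine, stood at 224 against 7545 CPM and 350 against 11834. Cxcl2, a chemokine for neutrophils, stood at 570 against 6573 and 621 against 9833 CPM. In the 5 young members Il1b had 0 UMIs in 4 cells and 5 in the other. Ptgs2 (cyclooxygenase), Ccrl2 (a chemoattractant receptor), Csf1 (the macrophage growth factor) and Acod1 (which makes itaconate) were among the 15 lowest in both libraries, with log2 ratios from -5.12 to -3.56. Saa3, an acute phase protein, had 0 UMIs in members of each library, against 68.3 CPM in mature neutrophils of aged and 92.4 of aged-GA mice.

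Genes of stress at dissociation, a list of immediate early genes such as Fos and of heat shock chaperones such as Hspa8, were lower too, with 12 of 13 at least 2-fold lower in aged and 10 of 13 in aged-GA mice. Interferon response genes were lower in CPM, with 14 of 20 and 12 of 16 past 2-fold and medians of -1.17 and -2.01, but on UMIs per cell the list summed higher in aged members, 41.6 against 35.6, and level in aged-GA mice, 26.6 against 26.3. Ribosomal protein genes were 3.72% of member UMIs and 9.99% of mature UMIs in aged mice and 4.02% and 8.00% in aged-GA mice; per cell they were 269 against 365 UMIs and 305 against 289, which turned the order in aged-GA mice. Mitochondrial UMIs were 0.517% of members and 1.18% of mature neutrophils in aged mice and 0.973% and 1.69% in aged-GA mice; per cell they were 37.5 against 43.2 UMIs and 73.9 against 61.1, so this order turned in aged-GA mice too.

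Monocyte, B cell and erythroid markers were lower in CPM in members than in mature neutrophils. The 12 monocyte markers summed to 152, 331 and 527 CPM in members of young, aged and aged-GA mice and to 1121, 2653 and 1869 CPM in mature neutrophils. Ctss, a cathepsin of antigen-presenting cells, was the most abundant of them in aged and aged-GA members, at 94.1 and 134 CPM. Of the mature neutrophils, 96 in aged mice (12.9%) and 44 in aged-GA mice (9.54%) had 3 or more UMIs of Csf1r, Ccr2 and F13a1, against 3 and 3 of the members. Without all such barcodes, 742 of the 2188 genes then tested (33.9%) were at least 2-fold lower in aged members, and 604 of 1819 (33.2%) in aged-GA members. Erythroid markers, mostly Hbb-bs, summed to 759, 4451 and 3260 CPM in members and 1482, 11127 and 9310 in mature neutrophils. B cell markers summed to 101, 415 and 370 CPM, T cell markers to 101, 32.5 and 63.3, and NK cell markers to 25.3, 11.4 and 40.5. In mature neutrophils B cell markers summed to 160, 681 and 1490 CPM, T cell markers to 80.1, 59.1 and 103 and NK cell markers to 0, 162 and 21.6, so T cell markers in young mice and NK cell markers in young and aged-GA mice went the other way. The part of erythroid, B, T and NK cell RNA in the ratios was not tested.

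**Figure D3:**
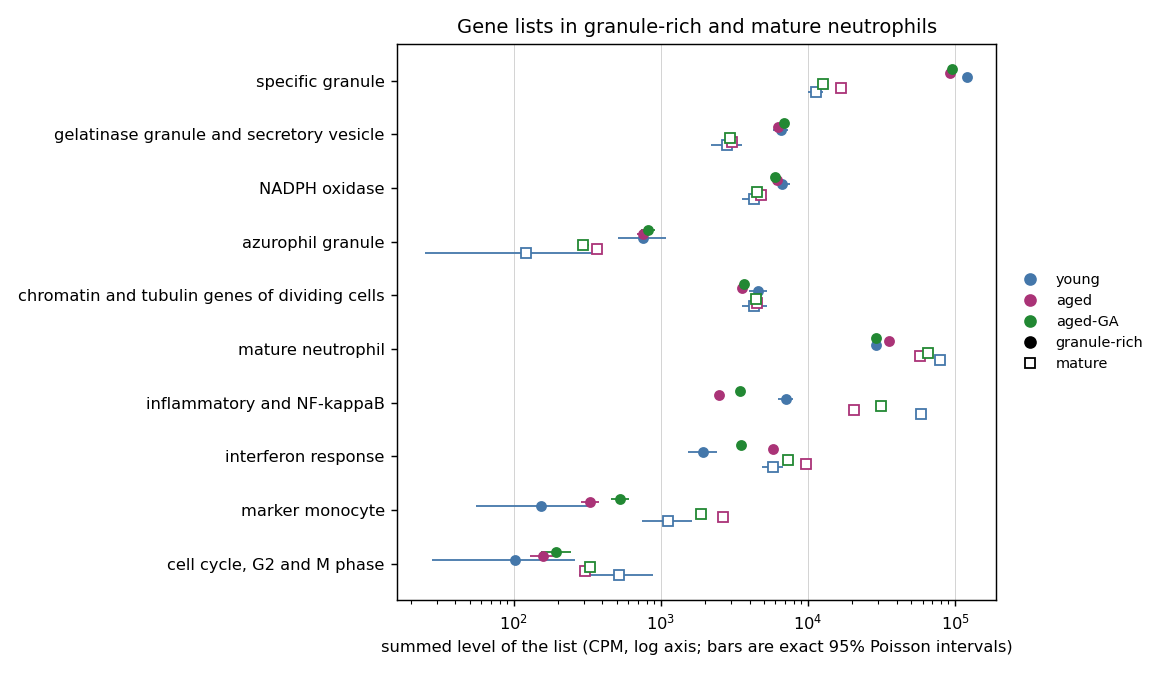
Summed CPM of gene lists (log scale) in granule-rich cells (filled circles) and mature neutrophils (open squares) of young, aged and aged-GA mice, with 95% counting intervals. Specific granule genes lie at 92559 CPM or more in members of each library and at 16791 or less in mature neutrophils, and inflammatory genes lie the other way; the specific granule sums include Ngp, Camp and Ltf, on which both kinds of cell were chosen.

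Members were not alike among themselves, and their granule share ordered other genes. The share of Ngp, Camp and Ltf in a cell's UMIs ran from 0.215% to 13.5% in aged and from 0.109% to 12.6% in aged-GA mice. Members were divided at 2.52% and 7.5% into cells of low, middle and high share: 31, 25 and 29 cells in aged mice, 15, 20 and 17 in aged-GA mice, and 1, 1 and 3 in young mice. These are ranges of one measure and not cell types, and depth rose with them, from a median of 5525 through 6509 to 8579 UMIs in aged mice and from 6014 through 6863 to 8046 in aged-GA mice. Since the share was one of the rule's own measures, the levels across it are given as a description.

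Chil3 went up most steeply of the 8 genes plotted against the share, from 354 through 1516 to 4351 CPM in aged mice and from 290 through 2504 to 5554 in aged-GA mice. Cebpe went from 86.2 through 192 to 374 CPM and from 70.3 through 246 to 317, with the middle and high intervals overlapping in aged-GA mice. Ly6g went from 397 through 489 to 1026 CPM and from 422 through 605 to 814. Both libraries gave the same order of summed levels of these genes along the share, but some steps lay within counting error. The low and middle intervals overlapped for Cebpe in aged mice and for Ly6g in both libraries. In aged-GA mice the middle and high intervals of Ly6g overlapped too. Cd177 was flatter, at 627, 965 and 1034 CPM and at 721, 1118 and 1217.

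Mmp8 was highest in the middle range of both libraries, at 2222, 3050 and 1514 CPM in aged and 2206, 3116 and 1895 in aged-GA mice, and the middle interval was apart from both others. Mmp9 stood at 2547, 2845 and 1754 CPM and at 2206, 3011 and 2593, where the middle interval overlapped the low one in aged and the high one in aged-GA mice. Retnlg went down, from 33435 through 24564 to 6292 CPM and from 24457 through 15588 to 5251. Cxcr2 went down from 508 through 303 to 159 CPM and from 343 through 281 to 151, and Csf3r from 503 through 272 to 179 and from 475 through 324 to 209. Chil3, Mmp8 and Retnlg were therefore highest in different ranges of these cells, in that order of falling granule share. Il1b was mostly in the low range, at 608, 12.4 and 36.6 CPM in aged and 659, 429 and 14.4 in aged-GA mice. Few cells carried it: 35 and 63 of the 127 UMIs of the low range in aged mice were in 2 cells, as were 19 and 40 of the 75 in aged-GA mice, and 1 cell held all 61 of the middle range there. Monocyte markers were also highest in the low range, at 871, 86.6 and 32.6 CPM and at 1626, 35.2 and 130. The 3 and 3 members with 3 or more UMIs of Csf1r, Ccr2 and F13a1 were all in the low range. Among them were the aged cell with 35 UMIs of Il1b and the aged-GA cells with 19 and 40. The aged cell with 63 was not. The part of monocyte RNA in the order of Il1b along the share was not tested.

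**Figure D4:**
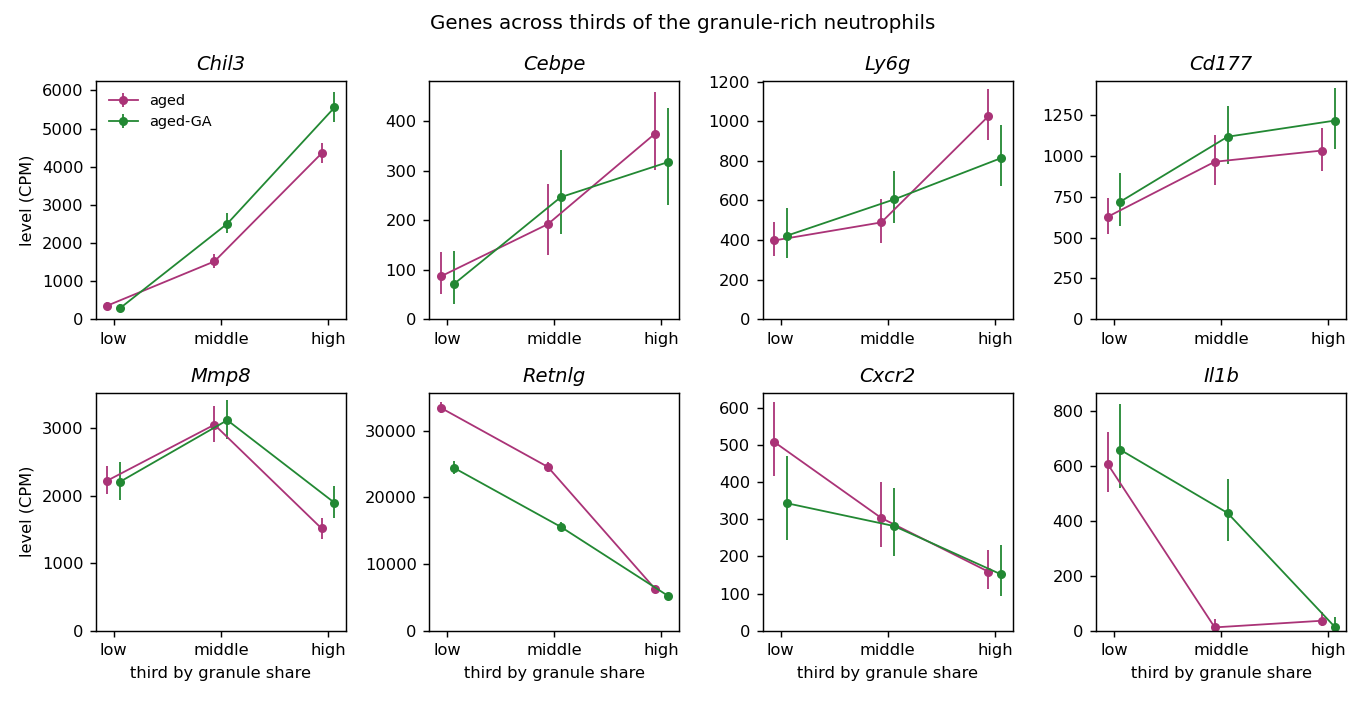
CPM of Chil3, Cebpe, Ly6g, Cd177, Mmp8, Retnlg, Cxcr2 and Il1b (linear scale) in granule-rich cells of low, middle and high share of Ngp, Camp and Ltf UMIs, in aged and aged-GA mice, with 95% counting intervals. Chil3 and Cebpe are highest at high share, Mmp8 is highest at middle share, and Retnlg and Cxcr2 are highest at low share in both libraries.

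Granule-rich cells of aged-GA and aged mice had like levels of most genes. Of 998 genes with at least 100 UMIs over the 85 and 52 cells, 17 (1.7%) were at least 2-fold higher in aged-GA mice and 4 (0.401%) at least 2-fold lower, around a median log2 ratio over all genes of 0.15. Of the 17, 6 were mitochondrial and 2 ribosomal protein genes. The share of mitochondrial UMIs, often read as a sign of RNA quality, was 0.517% in aged and 0.973% in aged-GA members. With a total without the rule's, haemoglobin and mitochondrial genes, 9 were higher and 5 lower, around a median of 0.04. Calls just past 2-fold, such as that of Cd14 (1.05), therefore depend on the total used. The 5 cells of young mice were too few for a ratio, and their values are given as counts. Since there was 1 library per group, these ratios compare libraries.

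The granule program itself differed little. Of 14 specific granule genes tested, 1, Olfm4, was at least 2-fold higher in aged-GA mice and 0 were lower, with a median of 0.05. Of the rule's own genes Ngp stood at 26842 and 28315 CPM (log2 ratio 0.08), Camp at 21523 and 19877 (-0.11) and Ltf at 5698 and 8245 (0.53, interval 0.46 to 0.60). These 3 ratios are of genes on which the cells were chosen, so they are given as a description. Lcn2 stood at -0.24, Chil3 at 0.38, Cd177 at 0.24 and Cebpe at -0.05. Lcn2 was further apart at low granule share (-0.89) than at middle (-0.09) and high share (-0.16). None of the 7 gelatinase granule and 7 NADPH oxidase genes tested was past 2-fold. S100a8 stood at 182708 and 146631 CPM (-0.32) and S100a9 at 171090 and 153992 (-0.15); in mature neutrophils the ratios were -0.33 and -0.12.

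Olfm4, a specific granule glycoprotein that marks a subset of neutrophils, was confined to few cells. It had 12, 18, 21, 22 and 29 UMIs in 5 of 85 aged cells (5.88%) and 4, 16, 21, 35, 36 and 72 in 6 of 52 aged-GA cells (11.5%), and 0 in the other members and in the 5 young cells. A member therefore had either several Olfm4 UMIs or none. The log2 ratio was 1.49 (1.14 to 1.86), 1.28 without the highest cell of each library and -0.39 in mature neutrophils. At low granule share the ratio was -0.0306, against 1.92 at middle and 1.54 at high share, and the intervals of the shares of cells overlapped (1.94% to 13.2% and 4.35% to 23.4%). In B cells Olfm4 was found in 0, 0 and 0.204% of cells at the depths given above.

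Ifi27l2a, an interferon-inducible gene, was lower in aged-GA members and its UMIs were spread over many cells. It stood at 1618 CPM in aged and 448 in aged-GA members, a log2 ratio of -1.85 (-2.09 to -1.62), and at 25.3 CPM, or 1 UMI, in young members. The median cell had 7 UMIs in aged mice (range 0 to 125) and 1 in aged-GA mice (0 to 28), so the ranges overlapped. Without the highest cell of each library the log2 ratio was -1.89. The gene was lower in aged-GA mice at low, middle and high granule share, at 2739 against 905, 1008 against 415 and 1066 against 108 CPM. It was lower as well in mature neutrophils, with -0.80, and in classical monocytes, with -0.86, so it was not limited to granule-rich cells. Those 2 classes shared barcodes. Of mature neutrophils, 92 of 745 in aged and 42 of 461 in aged-GA mice were also counted as classical monocytes. The difference between these ratios was not tested.

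The interferon response list was also lower in aged-GA members by its sum. It summed to 1924, 5741 and 3508 CPM in members of young, aged and aged-GA mice and to 5766, 9733 and 7270 in mature neutrophils. At low, middle and high granule share it stood at 8077 against 5062, 4843 against 3327 and 4347 against 2420 CPM in aged and aged-GA members. Ifi27l2a made up 1618 of the 5741 CPM in aged and 448 of the 3508 in aged-GA members. Of its 24 genes 4 reached 100 UMIs, all 4 with a ratio below 0 and 1, Ifi27l2a, past 2-fold. Their median was -0.34. Erythroid markers had a like median of -0.33, with all 4 tested genes below 0, and their part in the difference was not tested. Ifitm3, an antiviral membrane protein, had -0.35, and the schlafens Slfn1 and Slfn4 had -0.31 and -0.32. Isg15, a ubiquitin-like modifier, had 63 UMIs in aged and 11 in aged-GA members, too few for the test, and Rsad2 (viperin) had 39 and 6. Psmb9, a subunit of the immunoproteasome, and Trim30a, both interferon-inducible, were among the 15 lowest genes with -0.90 and -0.88.

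Wfdc17, a whey acidic protein of activated myeloid cells, had the lowest ratio of the named genes, with 123 UMIs in 19 aged cells and 12 in 5 aged-GA cells (-2.68, interval -3.71 to -1.86), against -0.32 in mature neutrophils. The stefin Stfa2l1, a cysteine protease inhibitor, had 105 UMIs in aged and 26 in aged-GA members (-1.36). The call of Cd74, the invariant chain of antigen presentation, rested on 1 cell, which held 125 of 159 UMIs in aged mice, had 27255 UMIs in all and was among the highest 5% of doublet scores; without it and the highest aged-GA cell the log2 ratio was 0.24.

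Of 7 inflammatory genes tested, 2, Ccl4 and Cd14, were at least 2-fold higher in aged-GA members and 5 were within 2-fold, with a median of 0.34 against 0.15 over all genes. The list summed to 7038, 2488 and 3435 CPM in young, aged and aged-GA members. It was higher in aged-GA than in aged mice at low and middle granule share (7048 against 4597 and 2786 against 1516 CPM). It was not higher at high share (1138 against 1335, with overlapping intervals). Monocyte markers at low share also stood higher, at 1626 against 871 CPM. At middle share 61 of the 396 UMIs of this list in aged-GA members were Il1b in 1 cell. The part of both in the difference was not tested. Cd14, the lipopolysaccharide co-receptor, had 125 UMIs in aged and 166 in aged-GA members (1.05, interval 0.71 to 1.40), against 0.44 in mature neutrophils. In the 5 young members Cd14 stood at 1139 CPM, above the 203 and 420 of the other libraries. Junb, an immediate early factor, stood at 445 and 859 CPM (0.95) and was higher in aged-GA mice at low, middle and high granule share. Of the transcription factor list, 8 of 9 tested genes had a ratio above 0, with a median of 0.42 against 0.15 over all genes. Fosl2, a partner of Jun, was past 2-fold (1.06). Nr4a1, an early nuclear receptor, had 1.13, with 1.96 at low, -0.31 at middle and 0.64 at high granule share. Of adhesion and surface receptor genes 0 of 18 and of glycolysis genes 0 of 9 were past 2-fold, with medians of 0.08 and 0.17. The 8 genes of stress at dissociation that were tested had a median of 0.45 with 0 past 2-fold. Ccl4, an inflammatory chemokine, had the highest ratio of the named genes, 1.80, but 111 of its 117 UMIs in aged-GA and 45 of its 52 in aged mice were in 1 cell each, and without these cells the ratio was 0.43.

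**Figure D5:**
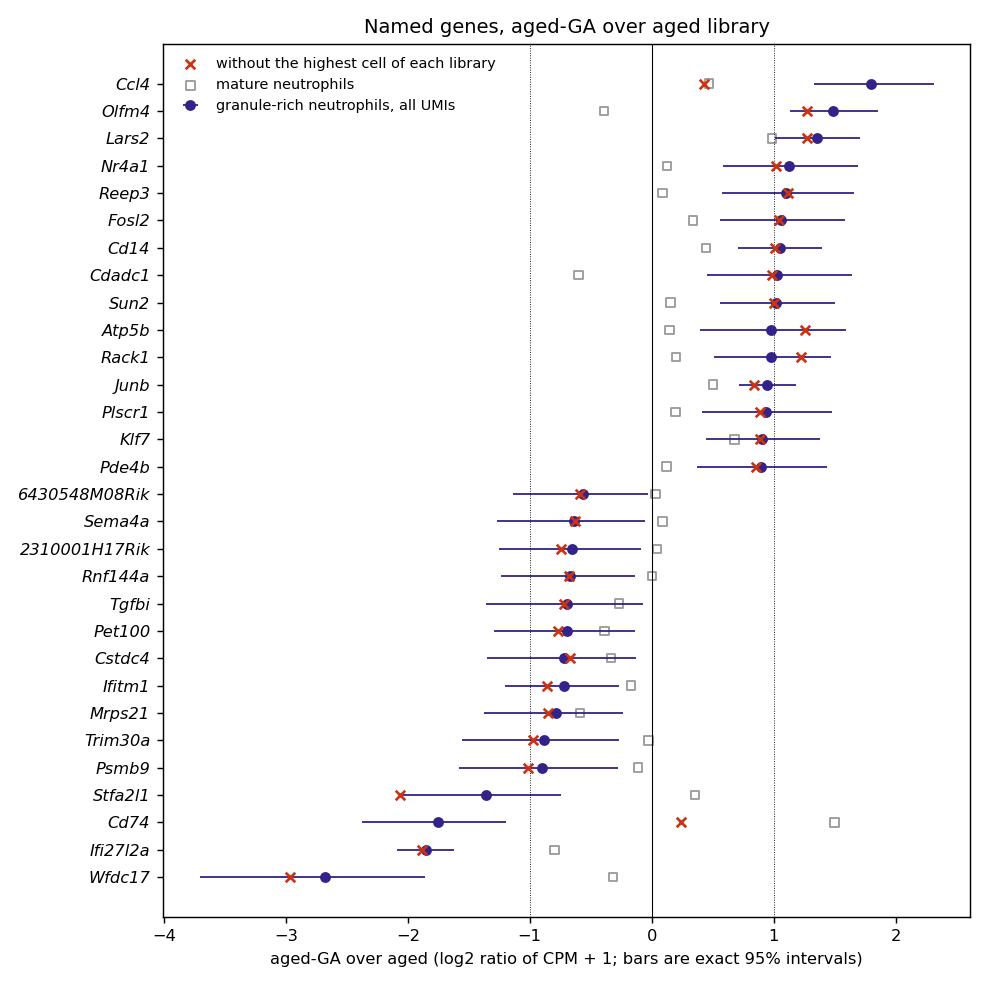
Log2 ratio of CPM, aged-GA over aged mice, within granule-rich cells for the 15 named genes highest and the 15 lowest, with 95% counting intervals; crosses leave out the highest cell of each library and squares give mature neutrophils. Ccl4 moves from 1.80 to 0.43 and Cd74 from -1.75 to 0.24 without 1 cell of each library, while Ifi27l2a stays at -1.89.

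Among the other named genes higher in aged-GA members were Lars2, the mitochondrial leucyl-tRNA synthetase (1.35), Reep3, which shapes the endoplasmic reticulum (1.10), Cdadc1, a deaminase-like protein (1.03), and Sun2, of the nuclear envelope (1.02). Lars2 stood at 886, 182 and 466 CPM in young, aged and aged-GA members and had a ratio of 0.98 in mature neutrophils. Atp5b, of the mitochondrial ATP synthase, and Rack1, a ribosomal scaffold, missed 2-fold with 0.98 each. Below 0 were Mrps21, of the mitochondrial ribosome (-0.79), Ifitm1 (-0.72), Tgfbi (-0.69) and Sema4a, a semaphorin (-0.64). Monocyte markers summed to 331 and 527 CPM in these cells; without the 3 and 3 members with monocyte UMIs, 15 genes were at least 2-fold higher and 4 lower, of 850 tested. T cell markers summed to 32.5 and 63.3 CPM, and their part in the ratios was not tested.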

How the data were processed

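The authors mapped droplet-based single-cell RNA reads of PBMCs with Cell Ranger (version 5.0.0 per the file headers; the study's methods name another version; mm10 per the submitters' processing notes) and deposited raw UMI counts per gene and barcode, with 1 library per group and 10842, 16038 and 17332 barcodes. From these counts, UMIs were summed over members, mature neutrophils, classical monocytes (Lyz2 of 10 or more with 3 or more UMIs of Csf1r, Ccr2 and F13a1) and B cells (3 or more UMIs of Cd79a and Cd79b), and given as CPM. Log2 ratios used a pseudocount of 1 CPM and genes with at least 100 UMIs over both sums; called means 2-fold or more. No test was possible with 1 library per group.

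The members and the gene lists were chosen with earlier results of these data known. Named genes were those of the lists and the rule, the 20 most abundant, and, without haemoglobin, mitochondrial, ribosomal protein and receptor segment genes and with 50 CPM in 1 sum, the 15 highest and 15 lowest ratios per comparison. Doublets were the highest 5% of Scrublet scores per library, since the automatic threshold marked only 0.0277% of aged-GA cells; they were kept in the main result, and 1 member was among them. On simulated sums of aged-GA over aged cells (949 genes), 98.85% of 174 changed genes were called and 0% of unchanged ones. The simulated counts had counting error only, with no spread between cells, and every planted change was well past 2-fold. Such figures follow largely from those settings. They give no rate of false calls for the measured genes, some of which rested on 1 cell or lay just past 2-fold. scanpy 1.11.5, numpy 2.4.6, scipy 1.17.1 and pandas 2.3.3 were used. Promoters came from RefSeq tables. Alternatives changed the filters, the limits, the pseudocount, the scaling, the depth and the doublets.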

Additional observations from a re-analysis of the deposited data

How the results depend on the processing

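Members per kept cell, aged-GA over aged, kept its sign under 12 alternatives (log2 ratio -1.05 to -0.49, the latter with a mitochondrial limit of 5%), and members per neutrophil stayed between 9.95% and 11.2% in aged and between 9.96% and 11.1% in aged-GA mice under 9. Alternatives on lymphocyte and monocyte UMIs, UMIs per cell and granule share were chosen after seeing the data.

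Counts of genes past 2-fold moved with the minimum and the scaling. With a minimum of 20 UMIs, where low counts pass 2-fold more easily, 228 genes were higher and 71 lower in aged-GA than aged members, of 3830 tested (17 and 4 of 998 as reported). With a total without the rule's, haemoglobin and mitochondrial genes 9 were higher, and without the deepest 10% of members 11 of 753 (1.46%, against 1.7%); without doublets, 1 member, 25 of 957 were higher (2.61%), and on UMIs per cell 21. For members over mature neutrophils the minimum of 20 gave 268 higher and 3010 lower in aged and 313 and 1971 in aged-GA mice; the reduced total gave 255 and 576, and 217 and 370; UMIs per cell gave 528 and 348, and 615 and 187. Leaving out monocyte UMIs gave 742 lower in aged mice, of 2188 genes tested (33.9%, against 36.8% as reported), and 604 of 1819 in aged-GA mice (33.2%, against 29.2%); higher were 4.11% and 5% (2.94% and 3.76%). Members with G2 and M phase UMIs were 50.6% unthinned in aged mice, and in aged-GA mice 11.5% at 500 UMIs, 40.4% at 2000 and 75% unthinned, since more UMIs are drawn.

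Of 2992 values for single genes under alternatives, 2556 kept their direction and their side of 2-fold or stayed within counting error. Of the rest, 317 dropped below 2-fold, 99 moved in another way and 20 changed sign. Aged-GA over aged, Ccl4 fell to -2.35 without the deepest 10% of members, -2.33 without monocyte UMIs and -2.34 at high granule share. Cd74 rose to 0.39 without doublets, 0.70 without the deepest members, 0.71 without monocyte UMIs, and 0.32 and 0.97 at middle and high share; 1 cell carried it. Olfm4 was -0.0306 at low share, Nr4a1 -0.31 at middle and Stfa2l1 2.16 at high share. Members over mature in aged-GA mice turned without monocyte UMIs for Bst2 (0.38), Cx3cr1 (1.02), Ear2 (1.33), Ms4a6c (0.24) and Rack1 (0.17), and on UMIs per cell for Lmnb1 (0.00576), Pde4b (0.052), Rack1 (0.044) and Slfn1 (0.00577). Otherwise the cause was not tested. No paired analysis was possible because each group was 1 library.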
